A study of Mus musculus with 14 samples.

Results

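The data describe plasma miRNAs of healthy wild-type mice, the control group of a quantitative PCR screen of a genetically engineered mouse model (GEMM) of osteosarcoma (OS). The members are the 6 mice whose labels give a healthy state and a wild-type genotype, of 14 mice in all, and the 8 mice with OS were not used. The controls were age-matched littermates of the GEMM mice. In that model a Col1a1 promoter drives Cre in osteoblasts and 1 or both Trp53 alleles are floxed, and the methods give the wild-type mice as p53+/+ and Cre+/-. The ages are not given in the sources used here. Blood was taken by cardiac puncture into EDTA, spun to plasma and filtered before RNA was extracted. Each mouse gave 1 sample, and the mice are named here by their numbers in the labels, 1, 2, 3, 4, 13 and 14, which carry no order.

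A miRNA is a short RNA that guides Argonaute proteins to messenger RNAs, mainly through its seed, bases 2 to 8 counted from the 5′ end. In plasma, miRNAs are protected from degradation by Argonaute proteins, vesicles and lipoproteins. Most of them come from blood cells, platelets and the endothelium, and damaged tissues add miRNAs of their own, such as miR-122 from hepatocytes and miR-1 from muscle. Red blood cells that break open during sampling release miR-451 and miR-16, and the difference in cycles between miR-23a and miR-451 serves as a marker of haemolysis.

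Each well of the panels I and II held primers for 1 miRNA and gave a quantification cycle (Cq), which lies on a log2 scale and falls as the miRNA becomes more abundant. A level in the text below is the mean Cq of all miRNAs in a mouse (its global mean) minus the Cq of the miRNA, in cycles. A level of 0 is that of the average miRNA, and a level higher by 1 stands for a doubling where the assay doubles in each cycle. Of 768 wells per mouse, 392 had a name, and these held 389 miRNAs, 46 of them under rat names (rno-). Names are those of the panel, where a star marks the minor arm of a hairpin.

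The miRNAs that led the ranking, with their relatives of the same seed, are printed first, since several of the highest levels fell in a few seed families. Sequences are from RefSeq, which held 37 of the 47 names looked up, and capitals mark the seed. The erythroid pair miR-451 and miR-144 and other leading miRNAs without a shared seed read as follows.
miR-451: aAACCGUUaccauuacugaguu
miR-144: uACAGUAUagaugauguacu
miR-21: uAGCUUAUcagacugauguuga
miR-223: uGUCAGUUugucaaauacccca
miR-24: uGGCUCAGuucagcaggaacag
miR-19b: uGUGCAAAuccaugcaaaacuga
miR-23a: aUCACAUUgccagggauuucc
miR-142-3p: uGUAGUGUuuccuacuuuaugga
miR-30c: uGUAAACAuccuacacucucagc

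The miR-15 and miR-16 family shared the seed AGCAGCA, the miR-17 family the seed AAAGUGC and the let-7 family the seed GAGGUAG, and they are shown to set small differences in sequence beside the levels.
miR-16: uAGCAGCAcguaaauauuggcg
miR-15a: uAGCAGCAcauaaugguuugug
miR-15b: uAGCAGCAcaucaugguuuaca
miR-93: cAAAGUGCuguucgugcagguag
miR-20a: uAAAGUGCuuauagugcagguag
miR-106b: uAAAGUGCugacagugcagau
miR-17: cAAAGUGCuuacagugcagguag
let-7g: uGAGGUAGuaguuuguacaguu
let-7b: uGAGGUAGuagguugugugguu
let-7a: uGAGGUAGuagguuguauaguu
let-7f: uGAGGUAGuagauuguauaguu

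The hairpin of miR-451 lies at chr11:78073170-78073241 on the plus strand of GRCm38.p6, beside that of miR-144, and its mature miRNA is in capitals. It is known for being matured by Argonaute 2 without Dicer.
Mir451a hairpin: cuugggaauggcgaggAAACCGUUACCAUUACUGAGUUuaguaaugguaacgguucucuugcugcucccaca

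Detection was wide. A Cq of 37 or less was called detected, as in the methods, and the count per mouse was 370 ± 16.5 of 389 (SD, n = 6), with the lowest count of 341 in replicate 1 and the highest of 387 in replicate 13. In all 6 mice 317 miRNAs were detected, or 81.5%. A further 47 were detected in 5 mice, 14 in 4 and 8 in 3. The remaining miRNAs were miR-291b-5p and miR-758, detected in 2 mice each, and miR-195*, detected in 1. These shares hold for the named wells, which are those kept in the authors' comparison, and are higher for that reason than over the whole panel. The other 376 wells had no name here, and 213 of them were detected in no mouse.

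Replicate 1 gave the weakest plasma signal. Its global mean Cq was 32.8, against 30.6 to 32.1 in the other mice, and 23.4% of its wells were blank, against 14.1% to 21.7%. Of the 317 miRNAs measured in all mice, 157 had either their highest or their lowest level in replicate 1, against 58 to 110 in each of the other mice. Spearman correlations between mice over these 317 miRNAs, which share the same assays and are not independent, ran from 0.85 to 0.95 over 15 pairs of mice. Their mean was 0.89 for replicate 1 and 0.92 to 0.93 for the others. How far the amount of input RNA sets these values was not tested.

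Mean levels of the 317 miRNAs spanned 16.9 cycles, from 12.62 to −4.32, with a median of 0.32 and quartiles of −1.87 and 2.75. The highest belonged to miR-451, a miRNA of red blood cells. Its level was 11.62, 11.87, 13.71, 11.60, 13.52 and 13.41 in replicates 1, 2, 3, 4, 13 and 14. Replicates 3, 13 and 14 lay together near the top of that range and the others near the bottom, with a gap between them of over 1 cycle. miR-451 was the miRNA of highest level in 4 mice and ranked 3 in replicates 2 and 4, where miR-1937b came first. With each panel centred on its own mean, miR-1937b came first on average.

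**Figure D1:**
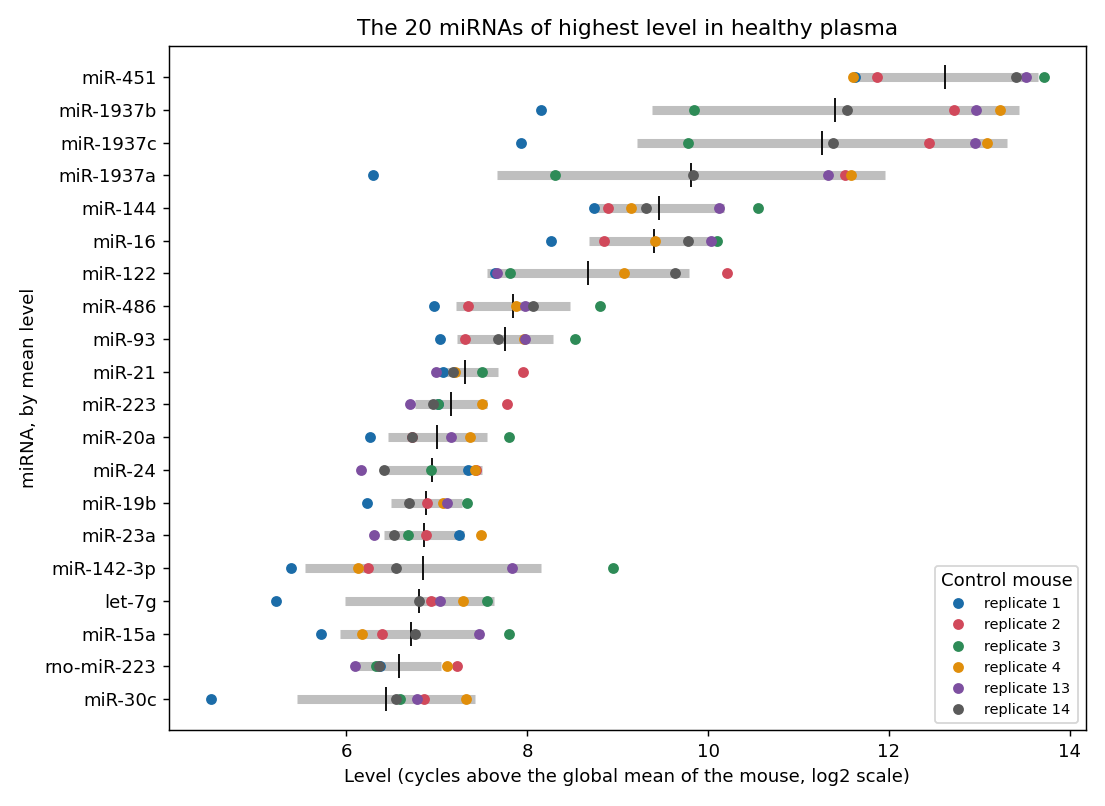
Level of the 20 highest miRNAs in each of the 6 control mice, in cycles above the global mean of the mouse (x axis), ordered by mean level (y axis); points are mice, black ticks are means and grey bars are 1 SD to either side. The 3 names of the miR-1937 group span over 5 cycles between mice, while miR-21 spans 0.96 cycles.

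The next 3 places were held by miR-1937b, miR-1937c and miR-1937a, at 11.41 ± 2.03, 11.26 ± 2.04 and 9.81 ± 2.14 (SD, n = 6). These names were later withdrawn from the miRNA register because they match transfer RNA. Then came miR-144, transcribed with miR-451 in erythroid cells, at 9.46 ± 0.72, and miR-16, abundant in most blood cells, at 9.41 ± 0.72. The liver miRNA miR-122 followed at 8.67 ± 1.12, and miR-486, a miRNA of erythroid cells and muscle, at 7.84 ± 0.63.

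Below these stood miR-93 at 7.75 ± 0.53, miR-21 at 7.31 ± 0.36, miR-223 of myeloid cells and platelets at 7.16 ± 0.40, miR-20a at 7.01 ± 0.54 and miR-24 at 6.95 ± 0.55. The remaining places of the top 20 went to miR-19b (6.89), miR-23a (6.86), miR-142-3p of white blood cells (6.85), let-7g (6.81), miR-15a (6.72), rno-miR-223 (6.58) and miR-30c (6.43). The rat name of miR-223 is taken here as a further assay of that miRNA, so the 20 names stand for fewer miRNAs.

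The order within the top 20 was mostly not resolved by 6 mice. Of the 19 neighbouring pairs, 2 kept their order in all 6 mice with a mean difference larger than 1 SD of that difference. These were miR-1937b over miR-1937c, by 0.15 ± 0.098 cycles, and miR-1937c over miR-1937a, by 1.45 ± 0.26. miR-451 exceeded miR-1937b in 4 of 6 mice, by 1.22 ± 2.25 cycles on average, which is within the spread. Of the 20, 12 were in the top 20 of every mouse. The widest change of place was that of miR-30c, which ranked between 14 and 47.

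At the foot of the ranking, miR-542-3p (−4.32 ± 0.55), miR-345-3p (−4.25 ± 0.33), miR-543 (−4.13 ± 1.30), miR-147 (−4.12 ± 0.82) and miR-669e (−4.08 ± 0.68) were the lowest of the miRNAs measured in all mice. Their mean Cq was 35.8 to 36.0, near the limit of 37, so that a lower level would have been counted as missing.

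Levels of different assays can be ranked only as far as the assays amplify alike. The panels held 23 miRNAs under both a mouse and a rat name, and the mean levels under these names differed by 1.14 cycles at the median. The size of the difference ran from 0.023 cycles for miR-200b to 6.96 for miR-1, was within 1 cycle for 11 of the 23 and was over 3 cycles for miR-1, miR-214 and miR-802. At the median these differences were steadier than the levels, with an SD between mice of 0.425 cycles for the difference and 0.706 for the levels themselves. The SD of the difference was below that of both levels for 15 of the 23, but not for the rest. For miR-345-3p it was 1.19, against 0.33 under the mouse name and 1.02 under the rat name. The sequences under the mouse and rat names were not compared, and their part in these differences was not tested. For miR-223 the mouse name lay above the rat name by 0.58 ± 0.11 cycles. The reference miRNAs of the study had a well on each panel. Panel II minus panel I was −0.53 ± 0.21 cycles of Cq for miR-191, −0.21 ± 0.21 for miR-423-3p and −0.063 ± 0.13 for miR-103 (SD, n = 6).

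Members of a seed family differed widely in level. Of the family with the seed AAAGUGC, miR-93 stood at 7.75 and miR-20a at 7.01, whereas miR-106b stood at 2.70 and miR-17 at 1.50. miR-20a and miR-17 come from the same cluster and differ at 2 of 23 bases, and miR-20a was higher by 5.51 ± 0.38 cycles, in 6 of 6 mice. miR-16 exceeded miR-15a by 2.69 ± 0.36 cycles and miR-15b by 3.47 ± 0.14, also in every mouse. In the let-7 family let-7g (6.81) and let-7b (5.96) were high, let-7a stood at 0.45, and let-7f, which differs from let-7a at 1 base, stood at −0.67 in the 5 mice that had it. let-7g was above let-7a by 6.36 ± 0.95 cycles. The seed UCACAGU was shared by miR-27a (5.55) and miR-27b (3.91), which differ at 1 of 21 bases.
miR-27a: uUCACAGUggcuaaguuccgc
miR-27b: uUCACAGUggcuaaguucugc
miR-27a was higher by 1.64 ± 0.23 cycles in all 6 mice. The assays' own efficiencies and their cross-reaction between near-identical miRNAs were not tested.

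When levels were turned into relative quantities, with a doubling per cycle assumed for each assay, the plasma signal was concentrated in a few names. miR-451 made up 33.5 ± 18.4% of the summed quantity (SD, n = 6), from 10.1% in replicate 4 to 57.6% in replicate 3, and 20.1% on average with each panel centred on its own mean. The 10 names of highest quantity in a mouse made up 83.5 ± 8.22%. The number of names needed for 90% was 11 in replicate 13, 15 in replicate 4 and 18 in replicates 2, 3 and 14, but 41 in replicate 1. Without the names that match transfer RNA, miR-451 made up 50.7 ± 14.4%.

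The 5 names given to transfer RNA sequences, miR-1937a, miR-1937b, miR-1937c, miR-720 and miR-1274a, had a median SD of 2.04 cycles, the largest of the 14 lists. Their share of the summed quantity was 7.85%, 59.5%, 9.05%, 69.8%, 49.8% and 27.8% in replicates 1, 2, 3, 4, 13 and 14. All 5 were highest in replicate 4 and lowest in replicate 1. Over all 317 miRNAs, 18.0% were highest in replicate 4 and 31.9% lowest in replicate 1. miR-1937b, for example, had levels of 8.15, 12.72, 9.84, 13.23, 12.96 and 11.54 in the same order of mice. Replicates 1 and 3 were low, and this group did not follow miR-451, which was high in replicate 3 and low in replicate 4. miR-720 had the largest SD of all 317 miRNAs, 2.90 cycles, from −2.45 to 5.39.

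Possible sources were read from 14 lists of miRNAs known for a tissue, a cell type or a gene cluster. The middle of all 389 miRNAs lay at a level of −0.59, and the 97 highest of them are called leading assays here. In these bulk samples a source that has fewer cells and one that releases less RNA per cell cannot be told apart, and several miRNAs stand on more than 1 list.

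Apart from the transfer RNA names, whose median level was 9.81, the red blood cell list was highest. All 11 assays of the red blood cell list were above the middle of all miRNAs and 10 were leading assays, with a median level of 7.01 and a range of 1.06 to 12.62. The list made up 44.1 ± 22.6% of the summed quantity, or 68.0 ± 13.7% without the names that match transfer RNA. miR-92a, a further erythroid miRNA, had no named well. Of the 14 platelet assays, 13 were above the middle and 10 were leading assays, with a median of 3.00, led by miR-223, miR-24 and miR-126-3p (6.12 ± 0.44). White blood cell miRNAs were split. miR-142-3p stood at 6.85 ± 1.30 and the lymphocyte miRNA miR-150 at 5.32 ± 0.36, whereas miR-155, induced in activated lymphocytes, stood at −2.29 ± 0.92. Of the 12 assays of that list, 9 were above the middle.

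**Figure D2:**
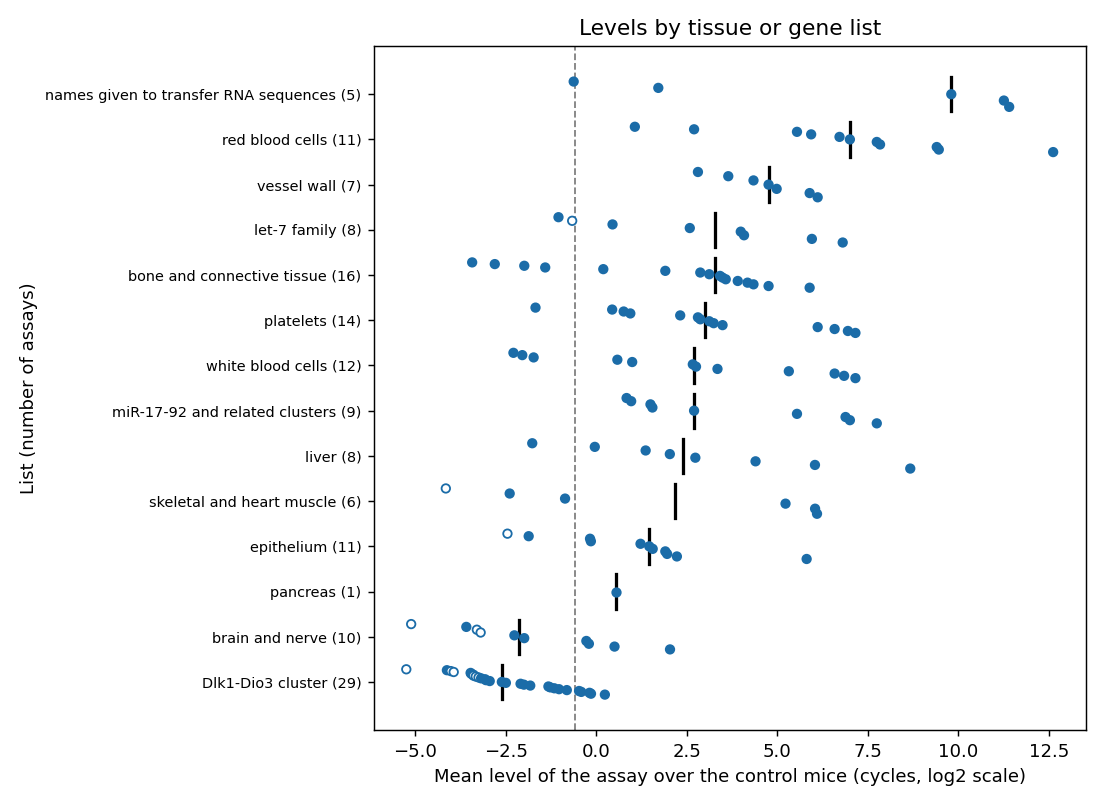
Mean level over the control mice of each assay (points, x axis, cycles) in 14 lists (y axis, number of assays in brackets), ordered by the median (black ticks); open points were not measured in all 6 mice and the dashed line is the middle of all 389 miRNAs at −0.59. The transfer RNA names and red blood cell miRNAs lie highest, and brain miRNAs and the Dlk1-Dio3 cluster lowest.

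By median level the vessel wall list lay above those of platelets and white blood cells. Its share of the summed quantity was smaller, 1.18% against 2.63% for platelets and 2.33% for white blood cells. All 7 assays of the vessel wall list were leading assays, with a median level of 4.76. miR-126-3p of the endothelium stood at 6.12, miR-143 of smooth muscle at 4.76 ± 0.34 and miR-145, from the same transcript, at 4.34 ± 0.83. Since miR-126-3p is also abundant in platelets, its level does not separate the sources.

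Solid tissues gave single miRNAs of high level. Of the 8 liver assays, 4 were leading assays, with miR-122 at 8.67 and miR-192, shared by liver and gut, at 6.04 ± 1.34. In muscle, miR-1 (6.10 ± 0.86), miR-133b (6.04 ± 0.71) and miR-133a (5.23 ± 0.73) were high. The skeletal muscle miRNA miR-206 was at −4.16 ± 0.33 in the 5 mice that had it and miR-499, of heart and slow muscle, at −2.39 ± 1.54. The heart miRNA miR-208a had no named well. The level of miR-1 rests on its mouse assay, since the rat assay stood at −0.86.

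In epithelium, miR-205 of stratified epithelia stood apart at 5.81 ± 0.58, with a range of 5.00 to 6.54 over the mice. The other markers of that list were lower, miR-200c at 1.56 ± 0.43 and miR-203 of keratinocytes at −1.87 ± 0.77. In the pancreas list, miR-375 of the islets stood at 0.55 ± 0.53, and miR-216a and miR-217 of acinar cells had no named well. In the list of bone and connective tissue 10 of 16 were leading assays, among them miR-199a-3p (3.49 ± 0.55). Its neighbour in the genome, miR-214, stood at 0.19 ± 0.79 under its mouse name and at 4.18 ± 0.92 under its rat name.

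The brain list had the lowest median of the tissue lists. Of 10 assays 7 were measured in all mice, 4 were above the middle, and the median level was −2.13. The neuronal marker miR-124 stood at −3.59 ± 0.67, and miR-9 at −3.20 ± 1.77 in 5 mice, both within a few cycles of the detection limit. The 4 above the middle were miR-128 (2.04 ± 0.80), which is less restricted to neurons, miR-219-5p (0.50), miR-218 (−0.21) and miR-132 (−0.28). The Dlk1-Dio3 cluster, an imprinted group of miRNA genes on chromosome 12 that is active in embryo, placenta and brain, was lower still. None of its 29 assays was a leading assay, 5 were above the middle and the median level was −2.61.

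Between mice, levels of the 317 miRNAs had a median SD of 0.719 cycles, with quartiles of 0.475 and 0.960. The SD was above 1 cycle for 74 miRNAs (23.3%) and below 0.5 cycles for 87 (27.4%). Among these miRNAs it differed little by abundance, but the limit of 37 in every mouse caps the spread that weak miRNAs can show. The median SD was 0.633 for miRNAs with a mean Cq up to 27, 0.600 for 27 to 30, 0.705 for 30 to 33, 0.769 for 33 to 35 and 0.755 for 35 to 37.

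**Figure D3:**
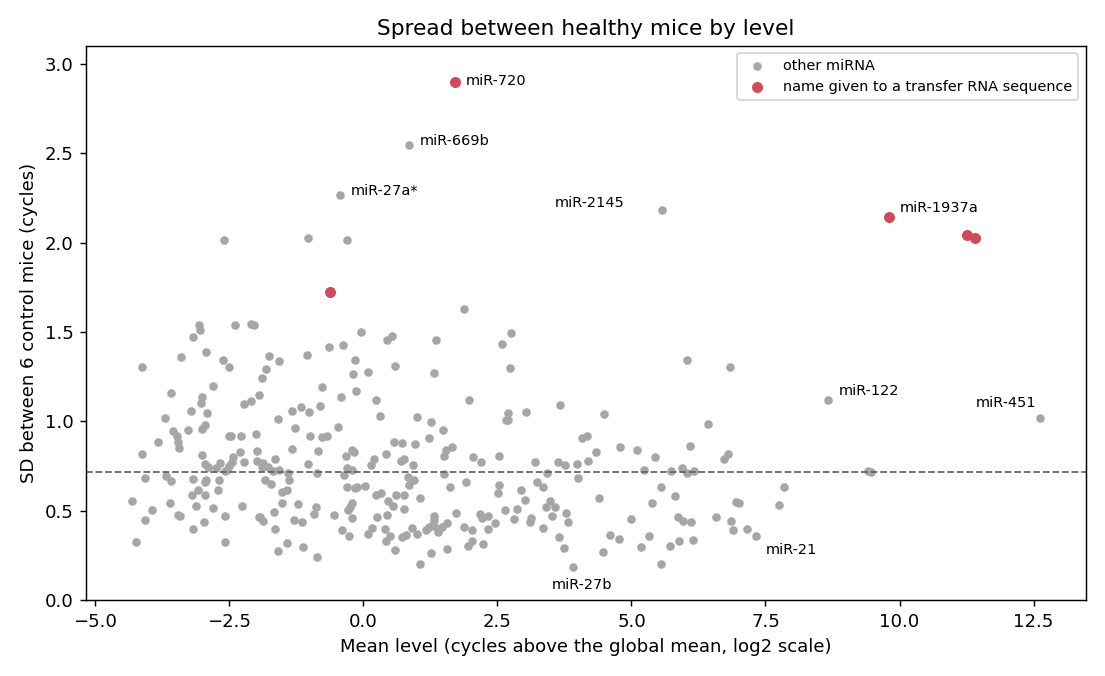
SD between the 6 control mice (y axis, cycles) against mean level (x axis, cycles above the global mean) for the 317 miRNAs measured in all mice, with the names that match transfer RNA in red; the dashed line is the median SD of 0.719 cycles. The 3 largest spreads, of miR-720, miR-669b and miR-27a*, lie at middle levels of 1.71, 0.84 and −0.44.

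The steadiest miRNAs were miR-27b, with levels of 3.88, 3.98, 3.80, 3.72, 3.82 and 4.24 in replicates 1, 2, 3, 4, 13 and 14 and an SD of 0.18, and miR-27a and rno-miR-338, with an SD of 0.20 each. They were followed by miR-501-3p (0.24) and miR-532-3p (0.26). Among abundant miRNAs, miR-21 varied little, from 6.99 to 7.95. The 3 references of the study were less steady by this measure, with an SD of 0.43 for miR-423-3p, 0.66 for miR-191 and 0.72 for miR-103. The comparison is not a like one. The steadiest miRNAs were picked by this SD in the control mice, and the study chose its references by the algorithms GeNorm and NormFinder.

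After miR-720, the largest SDs were those of miR-669b (2.55), miR-27a* (2.26), miR-2145 (2.18) and miR-1937a (2.14). They did not vary alike. miR-669b was high in replicates 2 and 3, at 2.53 and 5.19, and between −1.49 and 0.24 in the others. miR-27a*, the minor arm of one of the steadiest miRNAs, was low in replicate 4 at −4.15 and between −1.34 and 2.04 elsewhere. miR-2145 was at 7.58, 7.95 and 6.97 in replicates 2, 13 and 14 and between 2.86 and 4.19 in the others.

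In several lists most assays were highest in the same mouse. Some lists hold both arms of a hairpin, or a miRNA under both a mouse and a rat name, so their assays are not all independent. Red blood cell miRNAs were highest in replicate 3 for 10 of 11 assays, the exception being miR-185, and lowest in replicate 1 for 10 of 11. Over all 317 miRNAs, 19.2% were highest in replicate 3 and 31.9% lowest in replicate 1. The mean level of the list was 5.92, 6.43, 7.74, 6.84, 7.43 and 7.12 in replicates 1, 2, 3, 4, 13 and 14. The miR-17-92 and related clusters, which share miR-93, miR-20a, miR-25 and miR-106b with that list, were lowest in replicate 1 for 9 of 9 assays. The let-7 family was lowest there for 7 of 7, with let-7g at 5.22 against 6.81 to 7.55 in the other mice.

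Liver miRNAs were highest in another mouse. Of the 8 assays, 7 were highest in replicate 2, where 21.8% of all 317 miRNAs were highest, and miR-193b was the exception. The 7 include miR-802 under both its mouse and its rat name. miR-122 was at 7.64, 10.21, 7.81, 9.07, 7.67 and 9.64 in replicates 1, 2, 3, 4, 13 and 14, and miR-192 was at 4.70, 8.33, 5.22, 6.56, 5.08 and 6.35. The liver list had a median SD of 1.32 cycles, against 0.719 for all miRNAs. In relative quantity, miR-122 differed 5.94-fold between the lowest and the highest mouse.

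**Figure D4:**
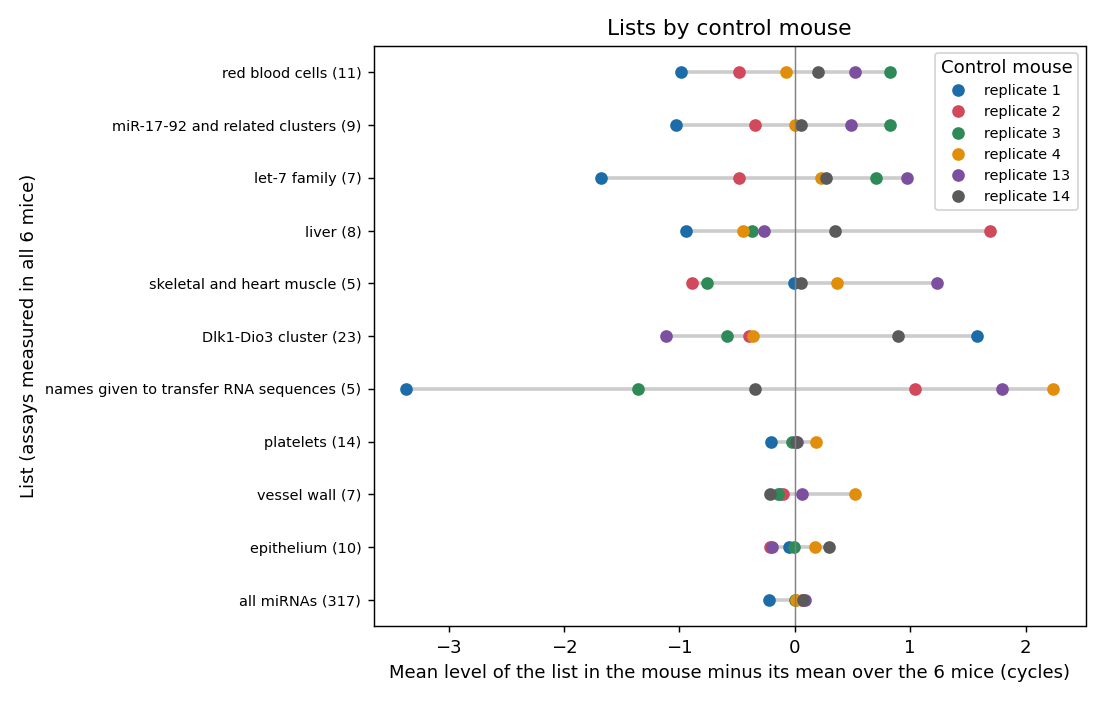
Mean level of a list in each control mouse minus the mean of that list over the 6 mice (x axis, cycles) for 10 lists and all 317 miRNAs (y axis, assays measured in all 6 mice in brackets); points are mice. Liver miRNAs are highest in replicate 2, red blood cell miRNAs in replicate 3, muscle miRNAs in replicate 13 and the Dlk1-Dio3 cluster in replicate 1.

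Muscle miRNAs were highest in replicate 13 for 4 of 5 assays, against 16.1% of all 317 miRNAs, and miR-133b, at 6.94 in replicate 1 and 6.87 in replicate 13, was the exception. The 4 include miR-1 under both its mouse and its rat name. miR-1 stood at 6.32, 5.05, 5.54, 6.77, 7.34 and 5.56 in replicates 1, 2, 3, 4, 13 and 14, and was lowest in replicate 2, where the liver miRNAs were highest. Of the 7 vessel wall assays, 5 were highest in replicate 4, against 18.0% of all, among them miR-126-3p at 6.96 against 5.79 to 6.17 in the other mice. The 5 were both arms of miR-126, miR-143 under its mouse and its rat name, and miR-145 from the transcript of miR-143. The platelet list had no leading mouse, and its mean level ran only from 3.02 to 3.41.

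The Dlk1-Dio3 cluster went the other way from the let-7 family. Of its 23 assays measured in all mice, 20 were highest in replicate 1, against 17.7% of all 317, and the other 3, miR-127, miR-376b and miR-329, in replicate 14. Its mean level was −0.35 in replicate 1 and −1.03 in replicate 14, and between −3.05 and −2.29 in the rest. miR-434-3p, for example, was at 1.67 in replicate 1, 0.21 in replicate 14 and between −1.91 and 0.03 elsewhere. The cluster's miRNAs are low, and a missing value leaves a miRNA out of this count, so it describes the 23 that passed the limit in every mouse. The part of the weak signal of replicate 1 in these shifts was not tested.

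The spread was also set against the place of the genes. Among 165 miRNAs with 1 place in the genome of GRCm38.p6, 99 pairs lay within 10000 bases of each other, and the SD of their difference in level had a median of 0.675 cycles, against 1.01 over all 13530 pairs. It was below that median for 79 of the 99 pairs. Many of these pairs share miRNAs and lie in the Dlk1-Dio3 cluster or in a few groups on chromosome X. They are therefore not independent, and the count does not stand for separate places in the genome. miR-25 and miR-93, whose genes lie within Mcm7, differed by 2.21 ± 0.14 cycles (SD, n = 6). miR-144 was below miR-451 by 3.16 ± 0.55 cycles.

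The haemolysis marker, Cq of miR-23a minus Cq of miR-451, was 4.38, 4.99, 7.03, 4.11, 7.21 and 6.88 in replicates 1, 2, 3, 4, 13 and 14, with a mean of 5.77 ± 1.43. Replicates 3, 13 and 14 were at 6.88 or above and the others at 4.99 or below. The marker was set against the level of 11 miRNAs across the 6 mice, a relation that was planned for 12. None passed an exact permutation test of Pearson's r over 720 pairings (two-sided) after Benjamini-Hochberg adjustment over 11. For the same test of Spearman's rho, the smallest p that 6 mice allow is 0.00278.

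Pearson's r was 0.81 for miR-16 (exact p = 0.0639, adjusted 0.195), 0.80 for miR-144 (exact p = 0.0583, adjusted 0.195) and 0.71 for miR-486 (exact p = 0.139, adjusted 0.303). Spearman's rho was 0.77 for miR-16 (exact p = 0.103, adjusted 0.226), 0.77 for miR-144 (exact p = 0.103, adjusted 0.226) and 0.66 for miR-486 (exact p = 0.175, adjusted 0.321). The lowest p was that of miR-142-3p, a white blood cell miRNA, with r of 0.80 (exact p = 0.0417, adjusted 0.195) and rho of 0.89 (exact p = 0.0333, adjusted 0.226). Without the mice farthest from the median marker, replicates 1 and 4, r was 0.98 for miR-16, 0.78 for miR-144, 0.77 for miR-486 and 0.66 for miR-142-3p, each over 4 mice. In these 4 mice the marker was 4.99 in replicate 2 and 6.88 to 7.21 in the others. Each such r therefore rests mainly on the gap between replicate 2 and the rest.

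On the other side of 0, r was −0.81 for miR-205 (exact p = 0.0708, adjusted 0.195, rho −0.77) and −0.67 for miR-223 (exact p = 0.193, adjusted 0.303, rho −0.77). miR-150, miR-126-3p, miR-122, miR-133a and miR-191 had r between −0.52 and 0.43, with adjusted p from 0.303 to 0.861. Without replicates 1 and 4, r again rests mainly on replicate 2. Over these 4 mice, r was −0.96 for miR-205, −0.98 for miR-223 and −0.79 for miR-122. It turned to 0.41 for miR-150 and 0.56 for miR-126-3p, and was 0.62 for miR-133a and 0.97 for miR-191. Levels are relative to a global mean, so a rise of some miRNAs lowers the level of the rest. With unscaled Cq, r was above 0 for miR-205, miR-223, miR-150, miR-126-3p and miR-122.

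The arms of a hairpin could be compared for 60 pairs of assays, called hairpins here, with both arms measured in every mouse. The hairpin of miR-345 is among them under its mouse and its rat name. The paired difference between the arms was tested by limma with Benjamini-Hochberg adjustment, and 50 hairpins passed an adjusted p of 0.05, or 83.3%. A constant gap between the assays of the arms passes this test as well, so a call does not separate abundance from assay efficiency. Among the 50 that passed, the arm named first, the 5p arm or the arm without a star, was higher in 43, or 71.7% of all 60. Of the 46 hairpins with a star name, 37 passed with the main arm higher, 3 passed with the star arm higher and 6 did not pass. The star marks the minor arm, so the naming itself favours this direction. Of the 14 with 5p and 3p names, 6 passed with the 5p arm higher, 4 passed with the 3p arm higher and 4 did not pass. The difference was over 3 cycles in 33 hairpins and had the same sign in all 6 mice in 45.

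The widest gap was that of miR-21. The main arm stood at 7.31 and miR-21* at −3.18, a difference of 10.50 ± 0.97 cycles (SD, n = 6; limma adjusted p = 1.09e-09). The hairpin is printed with both arms in capitals and lies at chr11:86584067-86584158 on the minus strand of GRCm38.p6, within the span of Vmp1.
Mir21a hairpin: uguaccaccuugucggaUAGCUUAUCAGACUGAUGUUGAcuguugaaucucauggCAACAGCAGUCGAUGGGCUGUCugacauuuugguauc
It was followed by miR-19b over miR-19b-1* (10.07 ± 0.47), miR-16 over miR-16-1* (9.72 ± 0.86), miR-103 over miR-103-2* (8.71 ± 0.39) and let-7g over let-7g* (8.59 ± 1.14). miR-19b, miR-16 and miR-103 have more than 1 gene, and their main arm sums over these genes while the star arm belongs to 1 of them.

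**Figure D5:**
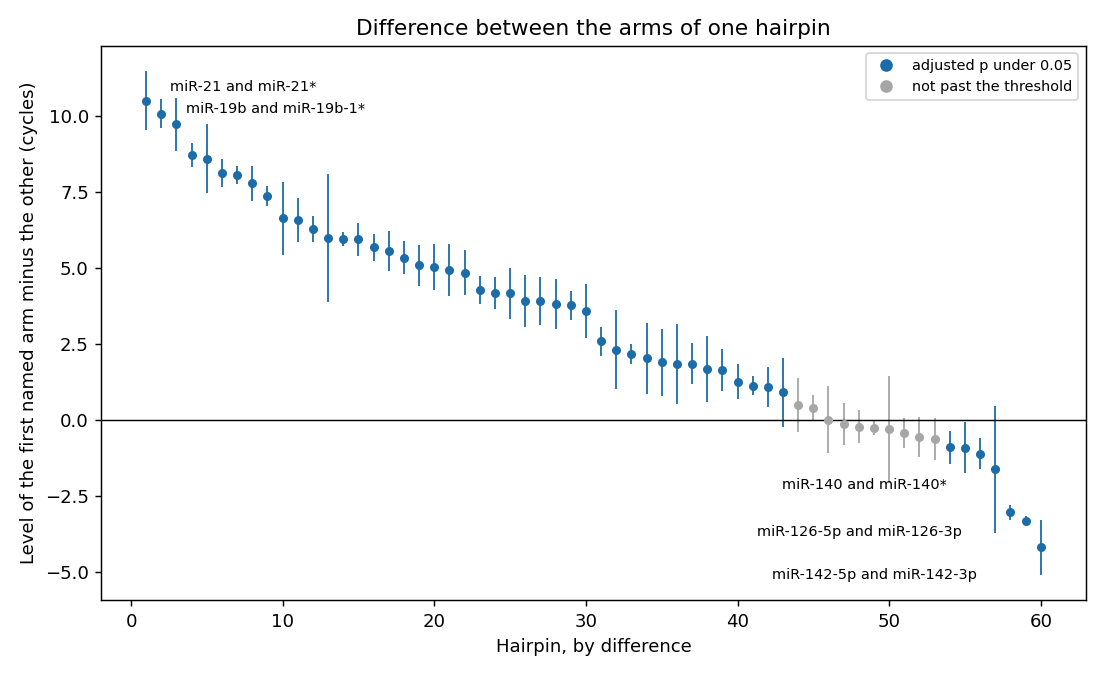
Difference in level between the arms of 60 hairpins (y axis, cycles, first named arm minus the other, mean and SD over 6 control mice), ordered by its size (x axis); blue marks an adjusted p under 0.05 by limma. The differences run from 10.50 for miR-21 to −4.18 for miR-142, and 43 of the 50 called are above 0.

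In 7 of the 50 hairpins that passed, the arm named second was higher. The 3p arm of miR-142 exceeded the 5p arm by 4.18 ± 0.91 cycles (limma adjusted p = 7.82e-07), and the 3p arm of miR-126 exceeded its 5p arm by 3.31 ± 0.16 (limma adjusted p = 5.38e-08). miR-140*, whose hairpin is known for its role in cartilage, stood at 6.15 ± 0.34 and above miR-140 by 3.03 ± 0.25 cycles (limma adjusted p = 1.33e-07). These 3 differences had the same sign in all 6 mice. The hairpin of miR-142 lies at chr11:87756864-87756927 on the plus strand.
Mir142 hairpin: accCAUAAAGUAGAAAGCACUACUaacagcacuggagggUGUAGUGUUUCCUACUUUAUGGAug
For let-7d the call rested on fewer mice. let-7d* was above let-7d by 1.61 ± 2.09 cycles (limma adjusted p = 0.0442), by 5.17 in replicate 1 and by 2.85 in replicate 2, whereas let-7d was higher by 0.44 in replicate 13. The adjusted p was 0.104 without replicate 1, 0.104 without replicate 2 and 0.0964 without replicate 4. The 3p arm of miR-532 was above the 5p arm by 1.10 ± 0.51 cycles (limma adjusted p = 0.00143). This gap holds for the mouse name of the 5p arm, at 0.16. Under its rat name the 5p arm stood at 1.32, close to the 3p arm at 1.26. The arms were read by different primers, often on different panels, and the efficiency of each assay was not tested.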

How the data were processed

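Plasma RNA of each mouse was measured on Exiqon mouse panels I and II, 1 sample per mouse. The authors deposited Cq values on a log2 scale from before normalization, for 768 wells per mouse. By the methods they applied interplate calibration and removal of outliers in GenEx. The sources used here do not say whether the deposited Cq values come before or after those steps. The authors' deposited table of their comparison holds fold changes and p-values, which were not used, and it gave only the names of 392 wells. A Cq holds no molecule count, so the precision comes from the spread between the 6 mice. The limma p-values set a mean difference between arms against that spread. The permutation p-values set r or rho against the other pairings of the same mice.

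A Cq above 37 was set to missing, wells of the same miRNA (3 miRNAs) were averaged, and 388 miRNAs missing in under 75% of mice were kept. Missing values took the mean of the miRNA in the calculation of the global mean and nowhere else. Arms were compared with limma 3.58.1 (R 4.3.3, lmFit with an intercept, eBayes, two-sided, threshold 0.05), and other steps used Python 3.11.15, pandas 2.3.3, scipy 1.17.1 and matplotlib 3.10.9. In simulated tables of 60 hairpins, 27.5%, 78.5% and 97.5% of differences of 0.5, 1 and 2 cycles were called, and 1.85% of calls were false.

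Named miRNAs are the 20 highest and 5 lowest, the 5 steadiest and 5 most variable, the markers or up to 4 highest of each list, the 5 hairpins with the largest difference in each direction, those with 2 wells, those detected in no mouse (there were 0), and those of the haemolysis relation. Others named were chosen after their values were seen. The mice, lists and tests were chosen with earlier results of these data known. Alternatives were other Cq limits, scalings, treatments of missing values and filters, a sign-flip test, and leaving out each mouse. Leaving out replicates 13 and 14 together and leaving out transfer RNA names were chosen after seeing the data.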

Additional observations from a re-analysis of the deposited data

Results flagged for a closer look

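A test for 1 mouse far from the other 5 (Dixon, 95%) was run on 97 values of the 6 control mice and marked 6 of them, or 6.19%, where chance marks about 1 in 20. Replicate 1 was the distant mouse in 4 of the 6. It was lowest for let-7g at a level of 5.22, for let-7b at 5.08 and for miR-30c at 4.50, and it needed 41 names to reach 90% of the summed quantity. Replicate 4 was highest for miR-126-3p at 6.96, and replicate 13 for miR-128 at 3.60.

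Among the 376 wells without a name, 18 gave a signal in all 6 control mice. Of these, 3 wells of panel I stayed between a Cq of 21.99 and 22.89 in every mouse. Another 6 wells, 3 on each panel, were lower in replicates 13 and 14 than in the other mice by 4.11 to 6.56 cycles on average, and the widest of them ran from 33.49 in replicate 1 to 22.77 in replicate 13. A further 5 wells were higher in replicates 13 and 14 by 0.95 to 1.89 cycles. In the other 4 wells that difference was −1.64 to 0.24 cycles. What these wells measure is not known here, and the labels give no batch.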

How the results depend on the processing

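With a Cq limit of 35, 307 miRNAs were detected per mouse and 28 of 39 hairpins passed the test of their arms, where 60 were tested at a limit of 37. Unscaled Cq gave a median SD between mice of 1.12 cycles. Without replicate 1 the median SD was 0.625, and over all mice left out in turn it ran from 0.625 to 0.730. Over the same settings, 318 to 345 miRNAs were detected in all mice, 367 to 376 per mouse, the share of miR-451 was 28.7% to 38.2%, 47 to 59 hairpins passed, and the same 20 names led. The call for let-7d was lost without replicates 1, 2 or 4 and at limits of 35 and 40, that for miR-28 without replicates 2 or 4, and that for miR-582 at both limits and when replicate 2, 3, 4, 13 or 14 was left out. No other of the 50 calls was lost where it was tested, and none changed sign. At a limit of 35, 30 of the 50 could be tested. The sign-flip test called 45 hairpins, all of them among the 50 called by limma, and the smallest adjusted p it gave was 0.0417. With 6 mice its smallest p is 0.03125, which any hairpin with the same sign in all 6 mice reaches. Its 45 calls are those hairpins, so the test adds nothing to the count of signs. With each panel on its own mean, 18 of the 20 leading names remained, miR-1937b came first in place of miR-451, and the share of miR-451 was 20.1%. Scaling to the 3 references lowered all 89 named levels, by 3.81 cycles at the median. Over 6 other settings for the haemolysis relations, the lowest adjusted p was 0.0733. The relations were not tested with 1 mouse left out, and r without replicates 1 and 4 stands with them. Levels near a Cq of 37 are limited by detection. No paired analysis was possible because no second group was compared, so that replicate numbers pair no mice. Arms were paired within each mouse.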
